A study of Mus musculus with 6 samples.

Results

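The genes of complement, the plasma protein cascade that marks and lyses microbes and cell debris, were described in the livers of mice of the inbred laboratory strain C57BL/6, fed for 12 weeks either a Western-style diet rich in fat (the high-fat diet) or a low-fat diet. The genes were taken from a list of 31 complement components, regulators and receptors, and a gene was measured where an array feature (a probe set, a group of short probes read as 1 value) carries its symbol and no other in the platform's gene table. This gave 31 probe sets for 24 of the 31 genes, out of 12488 probe sets in all. C1s1, C3, C6, C8a and C8b lacked such a probe set in that table and are not analysed here. C4a and C4b are near-identical copies that share 2 probe sets naming both, which are likewise not used. Each diet had 3 Affymetrix arrays of liver RNA, numbered 1 to 3 in their titles. The keywords of the labels name LDL receptor deficiency, but no label gives these mice an allele other than the C57BL/6 strain. The labels give no age, no sex and no time of collection, and do not say whether each array was made from a single mouse or from pooled mice, so p-values measure the spread between these arrays.

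Complement can be started in 3 ways. In the classical pathway C1q binds immune complexes or dying cells and activates its serine proteases C1r and C1s. In the lectin pathway mannose-binding lectins bind microbial sugars and activate the proteases MASP-1 and MASP-2. Either set of proteases cleaves C4 and C2 to form an enzyme, the C3 convertase, while the alternative pathway builds its own convertase from C3 and factor B and stabilises it with properdin. Cleavage of C3 leads on to cleavage of C5, called Hc in the mouse, and to the terminal proteins C6 to C9, which assemble into a membrane pore. Hepatocytes are the main source of most of these plasma proteins, whereas C1q and properdin come mostly from macrophages and other myeloid cells.

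Intensities are on a linear scale that the authors had set to a common level, with a mean between 499.6 and 499.9 on every array once the lowest and highest 2% of probe sets were left out. Between 8550 and 8856 probe sets of an array lay above 68.9, the 30th percentile of all values, which was used as the floor. Markers of hepatocytes were abundant: all 13 measured on the arrays were above the floor on enough arrays to be tested, and the albumin transcript Alb averaged 43190 with high-fat and 41340 with low-fat feeding. The ratio of the 3' to the 5' Gapdh control probe sets, a measure of RNA integrity, ran from 0.889 to 1.24 on the high-fat and from 0.824 to 1.07 on the low-fat arrays, and was lowest on the arrays numbered 3 of either diet.

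On the high-fat diet the transcript of C2, the protease of the classical and lectin C3 convertase, was lower, and no other measured complement gene passed the test. Of the 24 genes, 23 were tested: 0 rose, 1 fell and 22 did not pass an adjusted p of 0.05 in limma, a linear model across all genes, and Cd55 was too dim to test. Over all 6557 tested genes 0.976% passed, and over all 8950 tested probe sets 0.827%, against 1 of the 29 tested complement probe sets. At an unadjusted p of 0.05 there were 2 higher and 1 lower among the 23, and this level was passed by 9.50% of all genes. All arrays of one diet lay beyond all arrays of the other for 3 genes that were higher (C1qa, C4bp and Cfp), where 7.82% of all genes did so, and for 1 that was lower (C2), where 6.68% did so. A log2 fold change above 0 was found for 11 of the 23 and for 51.3% of all genes. The median log2 fold change of the 23 was -0.04 and that of all tested genes 0.01. The unadjusted 95% interval of the difference stayed within 2-fold either way for 20 of the 22 genes that did not pass. This count depends on the floor for the dim gene C3ar1, whose lower limit was -0.99. Its SE rose from 0.28 to 0.39 with the floor at the 10th percentile. The plot of fold changes by pathway step shows the interval of each gene.

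**Figure D1:**
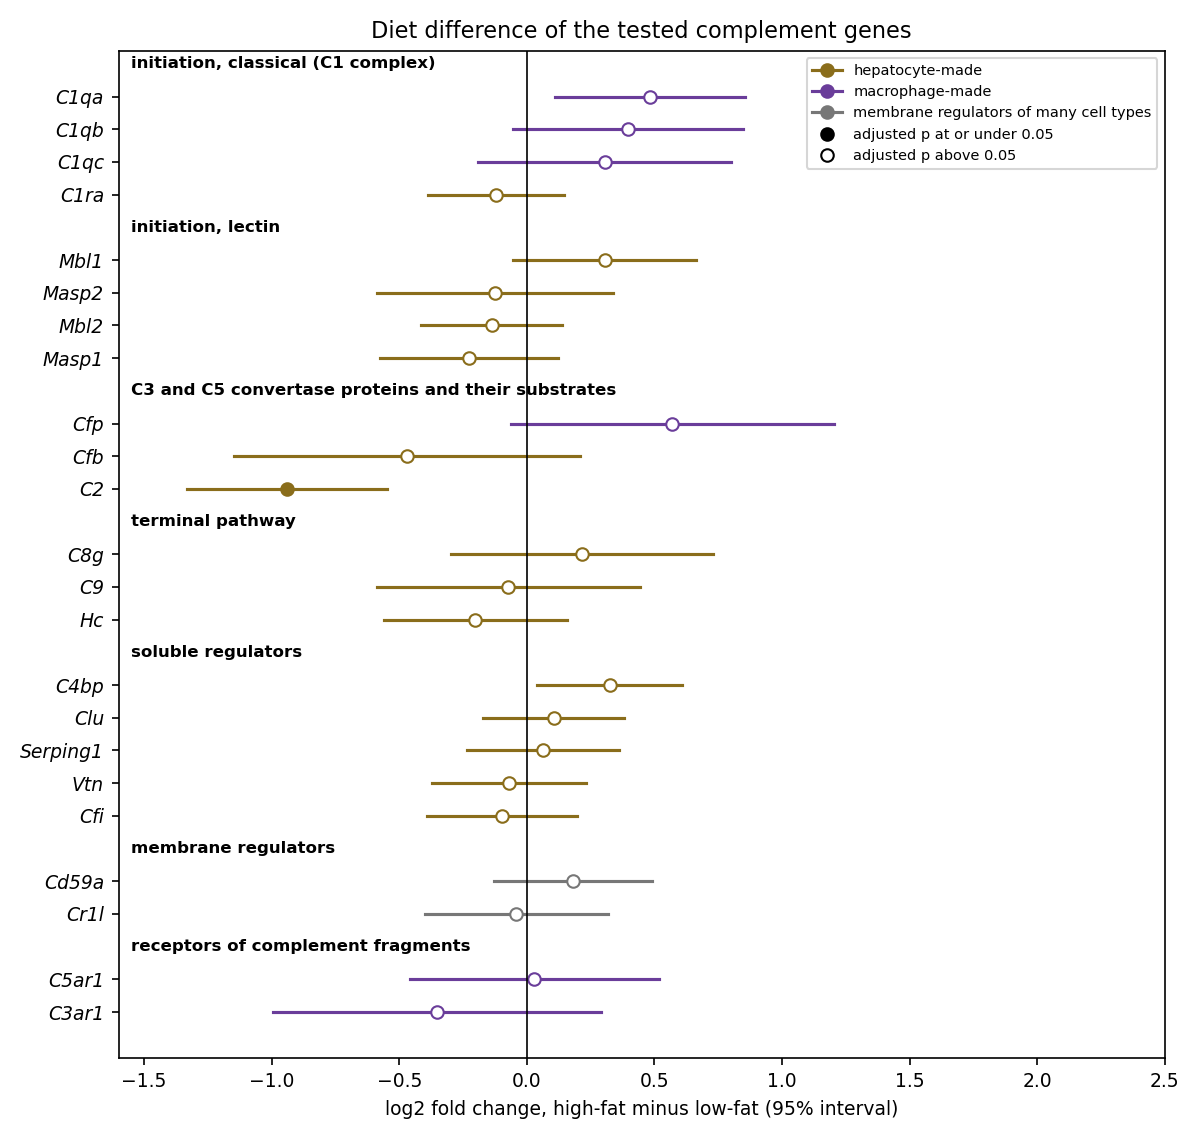
Log2 fold change, high-fat minus low-fat diet, of the 23 tested complement genes, with 95% intervals of the linear model (x axis), grouped by step of the cascade and coloured by main cell source. The filled point, C2 at -0.94, is the gene past an adjusted p of 0.05. Of the 22 open points 20 have intervals, unadjusted, within 2-fold.

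The first step of the classical pathway is the C1 complex, whose recognition part C1q is built from 3 chains encoded side by side by C1qa, C1qb and C1qc. C1qa stood at 2007, 1739 and 1807 under high fat (arrays 1 to 3 in order) and at 1693, 1211 and 1129 under low fat. All its high-fat values lay above its low-fat values, by a small margin over low-fat array 1. The log2 fold change was 0.48 ± 0.17 (SE), a ratio of 1.40 (adjusted p = 0.366, interval from 0.11 to 0.86). C1qb stood at 981, 908 and 1071 under high fat and at 1014, 695 and 593 under low fat, so that low-fat array 1 lay among the high-fat values. Its log2 fold change of 0.40 ± 0.20 (SE) did not pass (adjusted p = 0.599). C1qc stood at 2460, 2081 and 1900 under high fat and at 2486, 1562 and 1330 under low fat, with the highest of the 6 values on low-fat array 1. Its log2 fold change was 0.30 ± 0.22 (SE) (adjusted p = 0.766). The C1q chains thus shared an order of the low-fat arrays: array 1 high, array 2 lower and array 3 lowest. Their estimates depended on low-fat arrays 1 and 3: dropping array 1 gave 0.66 for C1qa, 0.62 for C1qb and 0.57 for C1qc, and dropping array 3 gave 0.37, 0.23 and 0.12. With both arrays numbered 3 left out C1qb was 0.17 and C1qc 0.20, and with the Gapdh ratio as a covariate C1qc was 0.15. A second probe set of C1qb, of a design marked with an i, read 311 ± 61.0 (SD, n = 3) with high-fat feeding against 327 ± 10.9 (SD, n = 3) with low-fat feeding, with a log2 fold change of -0.09, and did not show that order. The C1r protease gene C1ra, made by hepatocytes, varied little, at 1917 ± 187 (SD, n = 3) with high-fat feeding against 2080 ± 56.7 (SD, n = 3) with low-fat feeding, with a log2 fold change of -0.12 on a probe set whose design suffix, f, marks probes common to a gene family. The other C1ra probe set was level, at 0.003.

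The promoters of C1qb and C1qc are shown because these neighbouring genes shared an order of the low-fat arrays. That order was not particular to C1q. Cfp, C5ar1, the macrophage markers Tyrobp and Mpeg1 and the hepatocyte transcript Alb also had it, while the macrophage markers Adgre1 and Csf1r did not. On the high-fat arrays C1qb and C1qc differed in order, with C1qb highest and C1qc lowest on array 3. The promoters come from the RefSeq promoter table of mouse assembly GRCm38.p6. Each window of 300 bases there runs from 250 bases before to 50 after a gene's start. The windows lie at chr4:136886151-136886450 and chr4:136892865-136893164, on the minus strand, and are written 5' to 3' along the gene. The table used held 18 windows for 17 of the 24 measured genes, and C1qa was not among these. Capitals mark matches to any of 7 short motifs on either strand: C/EBP (TTGCNNAA), STAT (TTCNNNGAA), NF-kB (GGGNNTTCC), IRF (GAAANNGAA), a nuclear receptor element (AGGTCA), an HNF1 element (GTTAAT) and the core bound by the myeloid factor PU.1 (GAGGAA), the last added after the values were seen. The nuclear receptor and HNF1 elements are each only a part of a paired site, so a match is not a full site. No 2 matches overlapped in the windows shown.
C1qb: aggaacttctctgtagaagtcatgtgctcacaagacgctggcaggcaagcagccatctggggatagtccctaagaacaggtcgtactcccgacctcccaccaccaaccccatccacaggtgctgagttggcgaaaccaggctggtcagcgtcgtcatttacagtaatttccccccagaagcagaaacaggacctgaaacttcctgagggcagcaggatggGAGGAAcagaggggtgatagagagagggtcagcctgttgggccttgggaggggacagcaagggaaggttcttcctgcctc
C1qc: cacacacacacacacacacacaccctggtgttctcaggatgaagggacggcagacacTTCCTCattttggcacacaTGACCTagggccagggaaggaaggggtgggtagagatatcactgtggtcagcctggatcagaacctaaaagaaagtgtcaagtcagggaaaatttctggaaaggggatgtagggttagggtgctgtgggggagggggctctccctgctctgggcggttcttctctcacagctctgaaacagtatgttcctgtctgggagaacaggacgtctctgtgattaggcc
Each window held 1 PU.1 core, beginning 30 bases before the start in C1qb and, on the opposite strand, 193 bases before it in C1qc. That core is common: 28.3% of the 32851 promoter windows of the table hold it, and 5 of the 18 complement windows did. Those 5 are the windows of C1qb, C1qc, Cfp, the hepatocyte-made gene C1ra and the membrane regulator gene Cd59a. The windows of C3ar1 and C5ar1, which are also counted as macrophage-made, held no such core. C1qc also held a nuclear receptor element on the opposite strand, which is in 16.3% of all windows and in 3 of the 18.

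**Figure D2:**
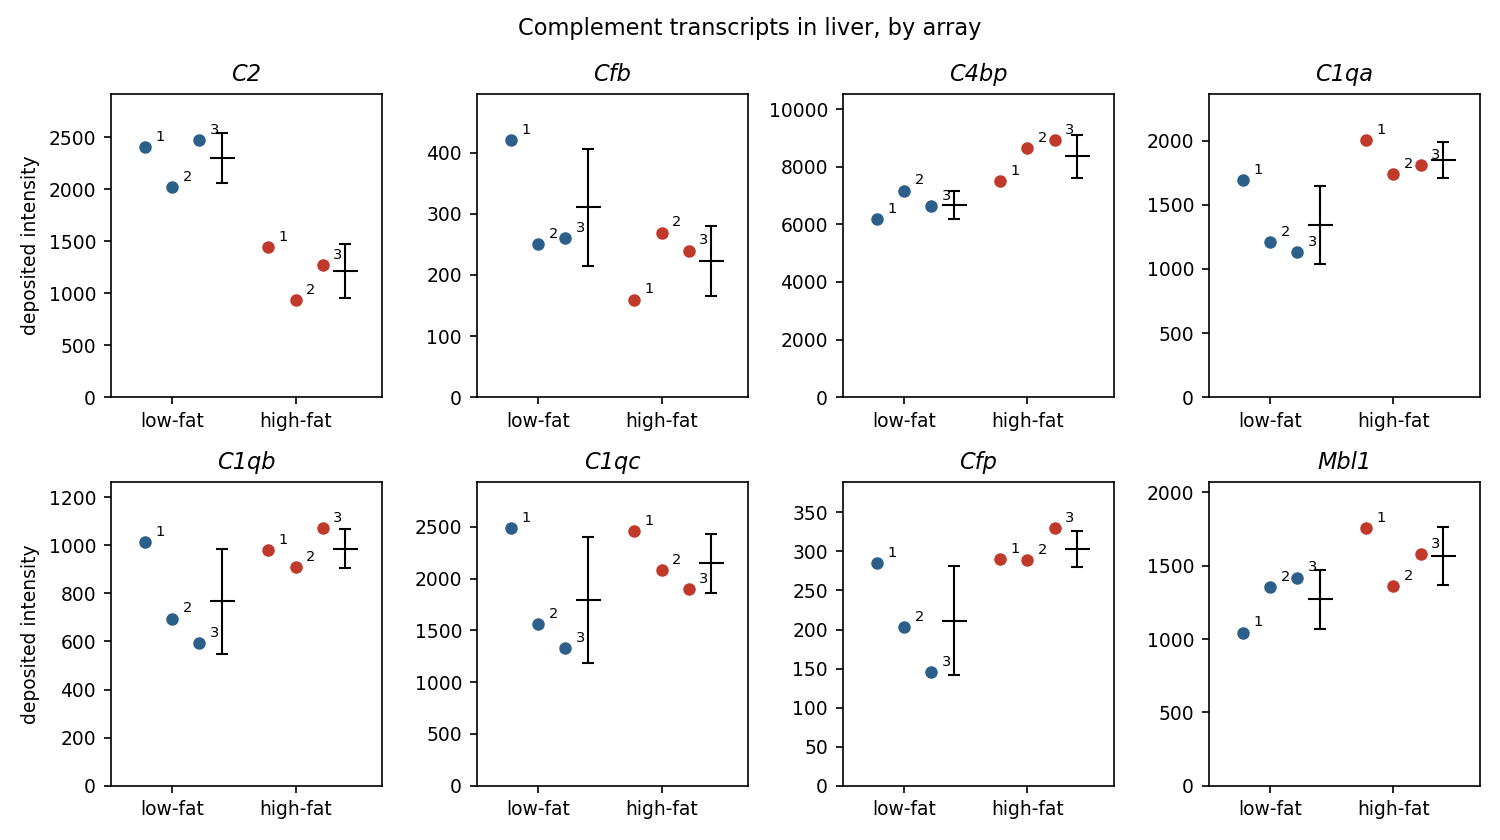
Deposited intensity (y axis, linear, from 0) of 8 complement genes on the 3 low-fat (blue) and 3 high-fat (red) arrays, each point labelled with its array number, and the mean and SD of each diet in black. The diets do not overlap for C2, C4bp, C1qa and Cfp, and low-fat array 1 lies with the high-fat arrays for C1qb and C1qc.

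Of the lectin pathway, all 4 genes were tested and 0 passed, with log2 fold changes from -0.23 to 0.31 and a median of -0.13. The mannose-binding lectin genes Mbl1 and Mbl2 had estimates of opposite sign. Mbl1 stood at 1755, 1363 and 1582 under high fat and at 1043, 1356 and 1419 under low fat, and high-fat array 2 lay among the low-fat values. Its log2 fold change was 0.31 ± 0.16 (SE) (adjusted p = 0.616, interval from -0.05 to 0.66), and 0.17 when low-fat array 1 was dropped. Mbl2 read 2393 ± 259 (SD, n = 3) with high-fat feeding against 2625 ± 142 (SD, n = 3) with low-fat feeding, with a log2 fold change of -0.14 (adjusted p = 0.824). The difference between the responses of the 2 lectins was not tested. The lectin-associated protease genes Masp1 and Masp2 had log2 fold changes of -0.23 and -0.12, with adjusted p-values of 0.745 and 0.925, and their diets overlapped.

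Among the genes of the convertases, C2 fell and its neighbour in the genome, the factor B gene Cfb, did not pass. C2 encodes the protease that C1s and MASP-2 cleave. It stood at 1441, 931 and 1267 under high fat and at 2406, 2022 and 2477 under low fat, so the highest high-fat value lay well below the lowest low-fat value. The mean was 1213 ± 259 (SD, n = 3) with high-fat feeding against 2302 ± 245 (SD, n = 3) with low-fat feeding. The log2 fold change was -0.94 ± 0.17 (SE), a level 1.92 times higher with low-fat than with high-fat feeding, with an interval from -1.33 to -0.55. Its adjusted p was 0.0449 over genes and 0.0499 over all probe sets, close to the threshold of 0.05. The estimate stayed between -1.08 and -0.76 with each array left out in turn, but of these 6 fits only the one without high-fat array 1 kept the call. The adjusted p rose to 0.138 or 0.0991 when array 2 or 3 of the high-fat diet was dropped, and to 0.173, 0.106 or 0.159 when array 1, 2 or 3 of the low-fat diet was. The call was also lost with scaling to a common median (adjusted p = 0.0606), a lower floor (0.0558), no filter (0.262), no intensity trend (0.196), the Gapdh ratio as a covariate (0.0676) or both arrays numbered 3 left out (0.256). The C2 estimate itself moved little under these settings, lying between -0.95 and -0.87. A second C2 probe set, of a design marked with an r, lay at the floor, at 64.6 ± 15.6 (SD, n = 3) with high-fat feeding against 77.8 ± 17.9 (SD, n = 3) with low-fat feeding, and had an adjusted p over probe sets of 0.928.

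Factor B, the C2 homologue of the alternative pathway, was measured by a dimmer signal. Cfb stood at 160, 270 and 240 under high fat and at 421, 251 and 260 under low fat. Low-fat array 1 was the highest of the 6, and the other low-fat arrays lay among the high-fat values. The log2 fold change was -0.47 ± 0.30 (SE) (adjusted p = 0.717). It was -0.23 when low-fat array 1 was dropped and -0.25 when high-fat array 1 was. Its interval, from -1.15 to 0.21, includes the estimate of C2, and the difference between C2 and Cfb was not tested. The estimate on the second Cfb probe set was -0.13. The ratio of the highest to the lowest array was 2.66 for C2 and 2.64 for Cfb, the widest of the 23 genes, and the diets overlapped for Cfb and not for C2.

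Properdin, encoded by Cfp and made by myeloid cells, stabilises the alternative convertase. Cfp stood at 290, 289 and 330 under high fat and at 286, 203 and 146 under low fat. The diets did not overlap, by a margin of a few units over low-fat array 1, and low-fat array 3 was the lowest as it was for the C1q chains. The log2 fold change was 0.57 ± 0.28 (SE), the highest estimate of the 23 genes (adjusted p = 0.587, interval from -0.06 to 1.20). It was 0.81 when low-fat array 1 was dropped, 0.33 when low-fat array 3 was and 0.27 when both arrays numbered 3 were. Its promoter, at chrX:20931506-20931805 on the minus strand, is shown for comparison with the C1q windows, with the same capitals.
Cfp: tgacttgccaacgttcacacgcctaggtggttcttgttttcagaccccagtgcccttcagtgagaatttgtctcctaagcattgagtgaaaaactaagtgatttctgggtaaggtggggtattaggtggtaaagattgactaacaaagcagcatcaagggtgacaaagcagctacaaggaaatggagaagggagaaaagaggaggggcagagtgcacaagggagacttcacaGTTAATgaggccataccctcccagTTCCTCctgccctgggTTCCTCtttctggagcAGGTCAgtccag
It held 2 PU.1 cores on the opposite strand, beginning 7 and 23 bases after the start, as well as 1 HNF1 element and 1 nuclear receptor element.

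Of the terminal pathway, Hc, C8g and C9 were measured and 0 of the 3 passed. Hc, the mouse C5, stood at 6348, 4503 and 6345 under high fat and at 6735, 5890 and 6950 under low fat, with a log2 fold change of -0.20 ± 0.16 (SE) (adjusted p = 0.797). High-fat array 2 was the lowest of the 6 and the diets overlapped. The Hc estimate was -0.04 when that array was dropped and -0.11 with the Gapdh ratio as a covariate. C9, which polymerises into the pore, stood at 12205, 6648 and 7277 under high fat and at 9839, 9442 and 7386 under low fat. The high-fat diet held its highest and its lowest values, and its log2 fold change was -0.07 ± 0.23 (SE) (adjusted p = 0.971). C8g, which encodes the gamma chain of C8, stood at 13375, 10760 and 7177 under high fat and at 9067, 10079 and 7217 under low fat, with a log2 fold change of 0.22 ± 0.23 (SE). C8g and C9 shared their highest value on high-fat array 1. A second C8g probe set lay below the floor on all 6 arrays, at up to 33.1, and was not tested.

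The soluble regulators limit the cascade in plasma, and 0 of 5 passed. C4bp, the C4b-binding protein that dismantles the classical and lectin C3 convertase and thereby opposes C2, stood at 7488, 8638 and 8931 under high fat and at 6191, 7168 and 6629 under low fat. All its high-fat values lay above its low-fat values. The log2 fold change was 0.32 ± 0.13 (SE), a ratio of 1.25, with an interval from 0.04 to 0.61 (adjusted p = 0.439). Its estimate lay between 0.27 and 0.40 with each array left out in turn. The promoter of C4bp, at chr1:130661569-130661868 on the minus strand, is shown as that of the hepatocyte-made gene whose high-fat arrays all lay above its low-fat arrays.
C4bp: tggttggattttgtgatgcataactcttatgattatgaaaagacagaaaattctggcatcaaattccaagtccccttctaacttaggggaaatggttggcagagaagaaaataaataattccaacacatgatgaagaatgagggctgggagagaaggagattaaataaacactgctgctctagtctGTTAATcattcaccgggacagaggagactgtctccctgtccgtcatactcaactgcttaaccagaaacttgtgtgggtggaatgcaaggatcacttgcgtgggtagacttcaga
It held 1 of the motifs, an HNF1 element beginning 64 bases before the start. Of all promoter windows 7.10% hold that element, against 6 of the 18 complement windows, those of C1ra, C4bp, Cd55, Cfp, Hc and Vtn. In the 18 windows C/EBP matches were in 2, STAT in 3, IRF in 3 and NF-kB in 1, where 10.8%, 8.30%, 8.56% and 5.82% of all windows hold them.

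The remaining soluble regulators were bright and close to level between the diets. Serping1, the C1 inhibitor that inactivates C1r, C1s and the MASPs, read 11430 ± 1318 (SD, n = 3) with high-fat feeding against 10900 ± 383 (SD, n = 3) with low-fat feeding, a log2 fold change of 0.06 with an interval from -0.23 to 0.36. Cfi, the factor I protease that cleaves C3b and C4b, had a log2 fold change of -0.10, with an interval from -0.39 to 0.20. Vtn, vitronectin, which keeps terminal complexes out of membranes, had a log2 fold change of -0.07. It read 9977 ± 1351 (SD, n = 3) with high-fat feeding against 10420 ± 109 (SD, n = 3) with low-fat feeding. Clu, clusterin, another inhibitor of the terminal complex, had a log2 fold change of 0.10 on its brighter probe set and of 0.18 on a probe set whose design suffix, f, marks probes common to a gene family. On the latter the diets did not overlap, at 5228 ± 161 (SD, n = 3) against 4604 ± 106 (SD, n = 3), and the adjusted p over probe sets was 0.697.

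The membrane regulators and the receptors for complement fragments did not pass either. Cd59a, which blocks the pore on the cell's own surface, read 2365 ± 294 (SD, n = 3) with high-fat feeding against 2085 ± 210 (SD, n = 3) with low-fat feeding, a log2 fold change of 0.18. Cr1l, a rodent regulator of C3 convertases, had a log2 fold change of -0.04 on its brighter probe set and -0.14 on the other. Cd55, decay-accelerating factor, was above the floor on 2 arrays, those numbered 3, at 108 with high-fat and 137 with low-fat feeding. The anaphylatoxin receptors mark myeloid cells. C5ar1 stood at 371, 423 and 329 under high fat and at 451, 354 and 304 under low fat, a log2 fold change of 0.03 with an interval from -0.46 to 0.52. C3ar1 was dim, at 77.6, 75.6 and 101 under high fat and 147, 85.8 and 98.0 under low fat, a log2 fold change of -0.35 with an adjusted p of 0.801. Both receptors were highest on low-fat array 1, and neither separated the diets.

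Set side by side, the macrophage-made genes had estimates mostly above 0 and the hepatocyte-made genes had estimates around 0. Of the 6 macrophage-made genes (the C1q chains, Cfp, C3ar1 and C5ar1) 0 passed, 5 had a log2 fold change above 0, and the median was 0.35. Of the 15 hepatocyte-made genes 1 fell and 14 did not pass, 5 had a log2 fold change above 0, and the median was -0.10, or -0.08 without C2. The difference between these medians was not tested. Both medians rested on few arrays. That of the macrophage-made genes was 0.59 when low-fat array 1 was dropped, 0.17 when low-fat array 3 was and 0.18 when both arrays numbered 3 were, and was 0.23 where all probe sets of a gene were averaged. That of the hepatocyte-made genes was 0.004 when high-fat array 2 was dropped, and -0.04 or -0.17 when array 3 or 1 of that diet was.

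Array by array, the macrophage-made genes varied most among the low-fat arrays. As the median over genes of the log2 value minus the gene's own mean, the macrophage-made genes stood at 0.21, 0.14 and 0.15 under high fat and at 0.27, -0.29 and -0.50 under low fat. By this median low-fat array 1 was thus above all high-fat arrays, which was not so for C1qa, C1qb and Cfp taken singly. Of the 6 genes 5 had their lowest value on low-fat array 3. The hepatocyte-made genes stood at 0.06, -0.15 and 0.02 under high fat and at -0.0003, 0.03 and 0.02 under low fat, and 7 of the 15 had their lowest value on high-fat array 2. The ratio of the highest to the lowest array had a median of 1.84 over the macrophage-made genes, with a range from 1.48 to 2.26, and of 1.44 over the hepatocyte-made genes, with a range from 1.22 to 2.66. The heat map shows all 23 genes, and not each gene followed its list. C3ar1, for example, was lowest on high-fat array 2, and Mbl1 on low-fat array 1.

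**Figure D3:**
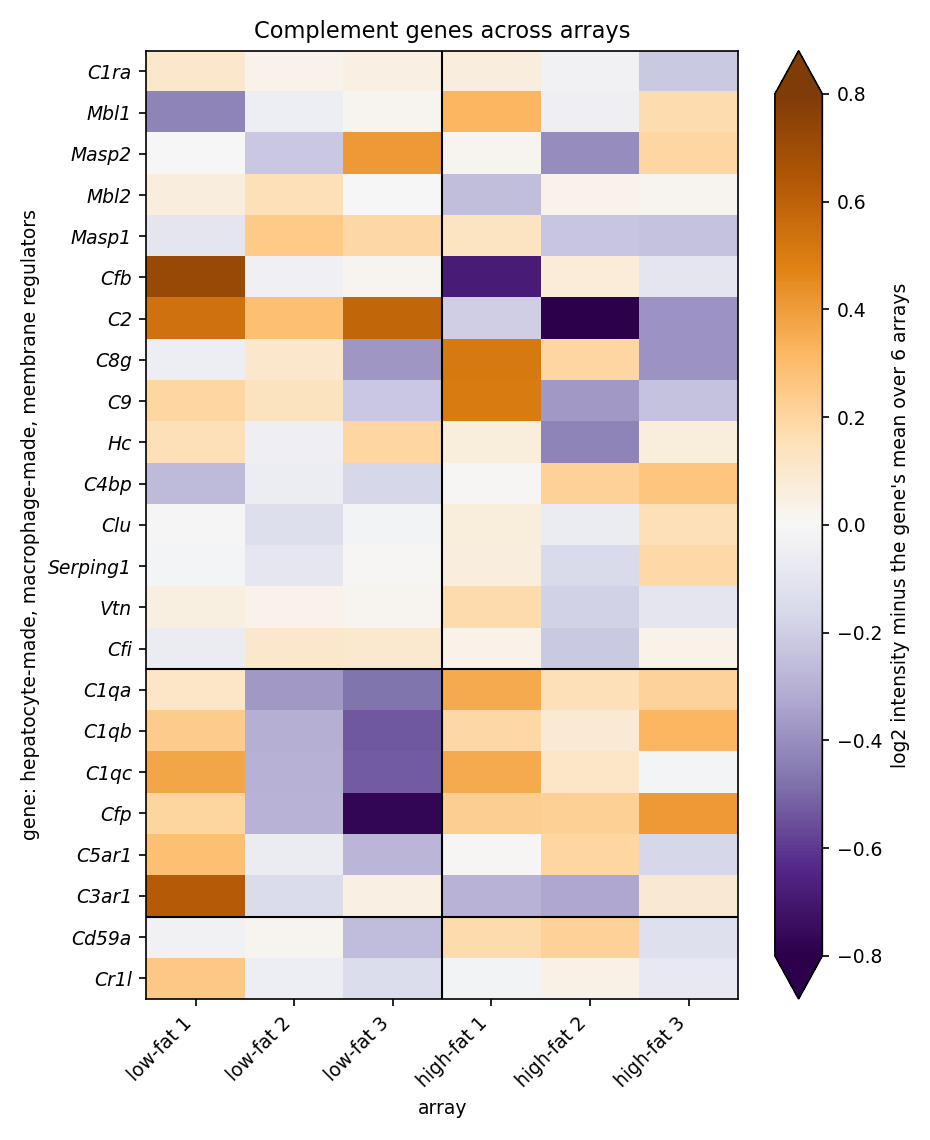
Log2 intensity minus the gene's mean over the 6 arrays (colour, limits at 0.8 either way) for the 23 tested complement genes (rows, by main cell source) on each array (columns, low-fat left, high-fat right). C2 divides the diets, and the C1q chains and Cfp are low on low-fat arrays 2 and 3 and not on low-fat array 1.

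Markers of Kupffer cells, the resident macrophages of the liver, and of other macrophages were compared on the same arrays. Of 23 listed markers 19 were measured and 17 tested, 0 passed, 14 had a log2 fold change above 0 and the median was 0.26. The summed intensity of the 19 measured markers ran from 10873 to 14342 on the high-fat and from 8885 to 10336 on the low-fat arrays. It was highest on array 3 of the high-fat and on array 1 of the low-fat diet. The brightest probe sets weigh most in such a sum. Among the 17 tested markers the diets did not overlap for 3, all higher on high-fat, where 7.82% of all genes did so. Their array medians were 0.04, -0.03 and 0.32 on the high-fat arrays 1, 2 and 3 and -0.05, -0.14 and -0.11 on the low-fat arrays 1, 2 and 3. The markers with the smallest p were Mpeg1, a macrophage pore-forming protein, 1.86-fold higher (adjusted p = 0.0662), and Tyrobp, a myeloid signalling adaptor, 1.59-fold higher (adjusted p = 0.326). The part of macrophage number in the C1q and properdin values was not tested, and in whole liver RNA more macrophages and more RNA per macrophage cannot be told apart. Neutrophils also hold properdin and C5ar1. Their 10 measured markers summed to between 1888 and 1988 on the high-fat and between 1769 and 1954 on the low-fat arrays. Of these markers 7 were tested and 0 called, and S100a9 and Ngp were below the floor on all 6 arrays. Hepatocyte markers summed to between 201177 and 261385 on the high-fat and between 217361 and 269122 on the low-fat arrays, with 0 of 13 called and a median of -0.04, and their smallest p-values were those of the amino acid enzymes Tat, at -0.79 (adjusted p = 0.0662), and Tdo2 (adjusted p = 0.294). Their sum was lowest on array 3 within each diet. Of the other cell types, 0 markers passed among 6 tested for lymphocytes, 9 for endothelium, 8 for stellate cells and fibroblasts and 1 for bile duct cells, with medians of -0.01, -0.16, 0.09 and 0.05.

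**Figure D4:**
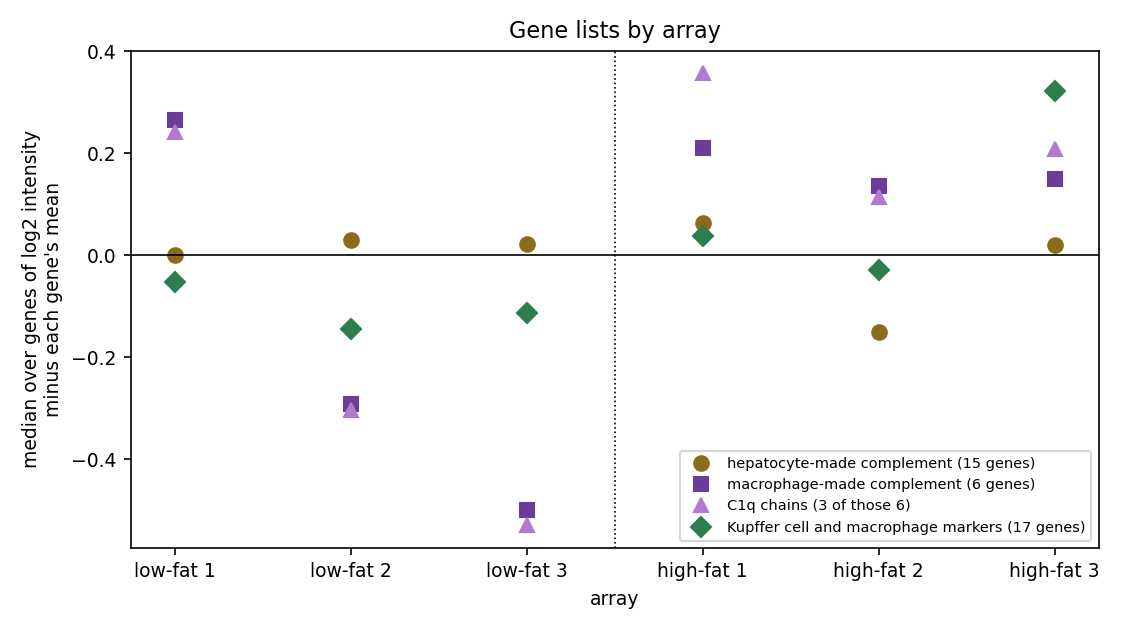
Median over the genes of a list of the log2 intensity minus each gene's mean (y axis), on each of the 6 arrays (x axis), for hepatocyte-made and macrophage-made complement genes, the C1q chains and the Kupffer cell and macrophage markers. On low-fat array 1 the macrophage-made complement genes stand at 0.27 and the Kupffer cell markers at -0.05, and on high-fat array 3 at 0.15 and 0.32. Among the low-fat arrays both of these lists are highest on array 1.

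Other genes of the complement system and of its control gave 0 calls. Of 31 further complement genes, including relatives of factor H, ficolins, receptors and linked plasma proteases, 16 were measured and 12 tested, 8 with a log2 fold change above 0 and a median of 0.08. The 2 with the smallest p were Cfhr2, related to factor H, at a log2 fold change of -0.55 (adjusted p = 0.428) on a probe set whose design suffix, f, marks probes common to a gene family, and the integrin chain Itgb2, part of complement receptors 3 and 4, at 0.47 (adjusted p = 0.587). Several complement genes are also acute phase genes, made in larger amounts during inflammation. Of 18 tested genes of the acute phase 0 passed, 12 had a log2 fold change above 0 and the median was 0.24. The diets did not overlap for 5 that were higher and 1 that was lower on high-fat, where 7.82% and 6.68% of all genes did so. The smallest p-values were those of the iron hormone gene Hamp, at -1.15 (adjusted p = 0.0853), and of the serum amyloid gene Saa3, at 1.26 (adjusted p = 0.160). Of 17 tested cytokine receptors and transcription factors that act on complement genes 0 passed, with a median of -0.002. The smallest p-values there were those of the interleukin-6 receptor gene Il6ra, at -0.69 (adjusted p = 0.354), and of Socs3, an inhibitor of that signalling, at 0.68 (adjusted p = 0.500).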

How the data were processed

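The series table holds 1 intensity per probe set and array, on a linear scale; the authors deposited these intensities already scaled, as the equal trimmed means show, and the sources used here do not name their software or background correction. Values under the floor of 68.9 (30th percentile) were set to it and log2 was taken. Of the probe sets, 66 controls were left out and those above the floor on at least 3 of the 6 arrays entered limma (version 3.58.1, under R 4.3.3), whose moderated linear model had an intensity trend in its variance prior, high-fat minus low-fat, two-sided, with Benjamini-Hochberg adjustment at 0.05. The same p-values were adjusted again over genes, with the probe set of highest mean log2 value per gene; adjusted p-values are over genes unless said otherwise. Intervals are the model's, unadjusted. The code was tested on simulated data. Probe sets were named by the platform's gene table, where 10855 had 1 symbol, 396 several and 1237 none; all 31 complement probe sets matched RefSeq by gene ID. Levels of different probe sets are not comparable. The number of arrays limits the precision. Values on each array are given for called genes, genes whose diets do not overlap, and a set including the C1q chains, C2, Cfb, Hc and C9; the 2 smallest p-values are named in other lists. C3ar1, C5ar1, C8g, Mbl1 and Cd55 were added to the genes given by array after their values were seen, as were the other genes named outside these rules. The complement genes, lists and tests were chosen with earlier results of these data known. Alternatives were other scalings, floors and filters, eBayes without the trend, robust estimation, array weights, a replicate block, arrays left out, the Gapdh ratio as a covariate, shared-probe designs left out and an adjusted p of 0.10.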

Additional observations from a re-analysis of the deposited data

How the results depend on the processing

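The count of complement genes and of complement probe sets past the threshold, 1 in either case, was 0 with scaling to a common median, a floor at the 10th percentile, no filter, eBayes without trend, both arrays numbered 3 left out or the Gapdh 3' to 5' ratio as covariate, and ranged from 0 to 1 with each array left out; with quantile normalization it was 0 for probe sets and 1 for genes. The adjusted p of C2 under those settings was 0.0606, 0.0558, 0.262, 0.196, 0.256 and 0.0676 while its log2 fold change stayed between -0.95 and -0.87, with fewer arrays or more probe sets tested in some; the cause was not tested in the others. The median of hepatocyte-made genes ranged from -0.17 to 0.0040 with each array left out. The sign turned in genes that were not called: C5ar1 was -0.012 without both arrays numbered 3 and -0.11 with the covariate, which also gave C8g -0.047 and Masp2 0.077. With each array left out, C5ar1 ranged from -0.10 to 0.18, C9 from -0.34 to 0.096, Masp2 from -0.27 to 0.049, Cr1l from -0.12 to 0.073, Serping1 from -0.013 to 0.15 and Vtn from -0.18 to 0.0040. Of 458 values of single genes under alternatives 433 kept direction and side of the threshold, 14 turned sign and 11, all of C2, lost the call. Over all genes the count past the threshold, 64, was 5 with no filter, 14 without trend, 11 without both arrays numbered 3, and with 1 array dropped 21 or 42 (high-fat array 2 or 3) and 22, 22 or 33 (low-fat array 1, 2 or 3). The arrays share only a number: with the replicate block 96 genes passed and the adjusted p of C2 was 0.00938, with same-number correlations of deviations of 0.07, 0.11 and 0.31, and high-fat array 1 correlated best with low-fat array 2. The block changed no call among complement genes, of which 1 passed.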
